A study of Mus musculus with 27 samples.

Results

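The genes of MHC class II presentation were followed across macrophages that differed in genotype, polarization and medium. The 10 genes were chosen by name: H2-Aa, H2-Ab1 and H2-Eb1 (the chains of the class II molecules), Cd74 (the invariant chain), H2-DMa, H2-DMb1 and H2-DMb2 (chains of the peptide exchange factor H2-DM), Ciita (the class II transactivator), and Cd80 and Cd86 (the B7 costimulatory ligands). All 10 were found among the 50559 genes of the deposited count table, and all 10 passed the filter on low counts that left 13614 genes to test. H2-DMb2 passed it at low counts, with 5 to 30 reads per library.

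The study asked how conditioned medium of malignant peripheral nerve sheath tumor cells (MPNST-CM) changes macrophages with and without TRAP1, a mitochondrial chaperone of the HSP90 family. Macrophages were grown with L929 cell medium, a source of M-CSF, from the bone marrow of WT or TRAP1 KO C57BL/6 mice, which the labels describe as female and 3 to 4 months of age. They were used either unpolarized (Mφ, labelled M0) or polarized to M2 by 24 h of IL-4 (10 ng/mL), and were then kept for 48 h in DMEM, the control medium, or in MPNST-CM, renewed after 24 h. The medium came from sMPNST cells, a single murine line made from skin-derived precursors that lack Nf1 and p53. The 8 groups are therefore WT Mφ, TRAP1 KO Mφ, WT M2 and TRAP1 KO M2, each in control medium and in MPNST-CM, with 3 libraries each in batch 1 as the labels name it. All groups share the L929 medium, and the sources name the KO animals TRAP1-deficient with no limit to a cell type. The sources do not say whether the libraries of a group came from separate animals, so p-values measure the spread between these libraries, which may be technical.

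The libraries are 3′ RNA-seq, in which each read marks the 3′ end of a transcript, and values are CPM, counts scaled to a library size that was normalized with TMM factors. The 24 libraries of batch 1 held 7037684 to 9089792 reads on genes. Trap1 had 10.4 to 18.8 CPM in the 12 WT libraries and no read in the 12 TRAP1 KO libraries. Xist, the X-inactivation transcript of female cells, had 253 to 503 CPM in those WT libraries and at most 1.14 CPM in the KO libraries, which goes against the labelled sex of the KO animals, so that in batch 1 genotype and Xist status cannot be told apart. Batch 2 holds 3 more libraries, 1 each of WT Mφ in control medium, KO M2 in control medium and KO M2 in MPNST-CM. The last 2 stand apart from the batch 1 libraries of their groups in 7 and 5 of the 10 genes, and Xist was at 403 and 307 CPM in them. Retnla and Chil3, among the IL-4 response markers, go against the labels too. Retnla was at 24.0 CPM in the one labelled KO M2 in control medium, where batch 1 had 1731 to 2029. In the one labelled KO M2 in MPNST-CM it was at 4462, where batch 1 had 213 to 235. Chil3 was at 1.82 and 498 CPM against 249.6 to 305 and 109.7 to 123. Arg1 was at 2.29 and 48.4 CPM against 4.06 to 5.45 and 221 to 235, and Mrc1 at 663 and 696 against 505 to 585 and 3276 to 3745. In the library labelled KO M2 in control medium, Arg1 and Mrc1 lay far below batch 1 KO M2 in MPNST-CM. Whether these 2 libraries carry the wrong labels was not tested, and every value over 27 libraries rests on the labels as given. The results below are therefore given for batch 1, as the gene set was defined, with the number of genes called over all 27 libraries beside each count. Within batch 1, 5 libraries numbered 1 stand apart from the other 2 of their groups, those of the 4 Mφ groups and of WT M2 in MPNST-CM: their counts differed from the others by a chi-square per degree of freedom of 16.04 to 37.4, where the other 2 libraries differed by 2.11 to 3.42. These 5 deviated from their group means together, with correlations of 0.38 to 0.52. Counts are also given for the 19 libraries left without them. The shares of all genes given as background belong to the 24 libraries of batch 1. Counts over other sets of libraries join both directions and stand without such a share. Over the 27 libraries fewer of all genes were called in most comparisons too, as the section on how the results depend on the processing lists. The bulk measurement cannot tell fewer cells of a type from less RNA per cell.

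As background, class II molecules are dimers of an α and a β chain that show peptides from endosomes to CD4+ T cells. The invariant chain encoded by Cd74 fills their groove during assembly, and H2-DM then exchanges the remaining fragment for a peptide. Transcription of these genes depends on CIITA, which does not bind DNA itself but is held at their promoters by the RFX complex, CREB-family proteins and NF-Y, sitting on neighbouring X and Y boxes. CD80 and CD86 give the second signal, through CD28 on the T cell, and do not belong to the CIITA-dependent genes. Macrophages are known to raise class II in response to IFN-γ and to IL-4.

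The promoters are shown because CIITA acts through this element. RefSeq promoters (build GRCm38.p6, 250 bases before to 50 after each start) were found for 6 of the 10 genes, namely H2-Aa, H2-Eb1, H2-DMa, H2-DMb1, H2-DMb2 and Cd80. Both strands of all 32851 promoters were searched for an X box core (AACNGATG), a Y box (TGATTGG) and a cyclic AMP response element (CRE, TGACGTCA), with letters chosen after reading these promoters. The X box core was in 2.32% of all promoters, the Y box in 7.82% and the CRE in 1.79%. An X box core followed by a Y box within 60 bases on the same strand was in 9 promoters (0.0274%). They were those of H2-Eb1, H2-DMb1, H2-DMb2 and H2-Eb2, and of BC051142, Clrn1, G3bp2, Gm35444 and H2-M10.4. In the sequences below, capitals mark the X box core, or in H2-Aa the CRE, and then the Y box. They lie at chr17:34287842-34287922 on the minus strand for H2-Aa and, on the plus strand, at chr17:34305753-34305837 for H2-Eb1, chr17:34153074-34153159 for H2-DMb1 and chr17:34145103-34145188 for H2-DMb2.
H2-Aa: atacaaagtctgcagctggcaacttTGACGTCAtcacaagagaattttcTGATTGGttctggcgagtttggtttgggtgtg
H2-Eb1: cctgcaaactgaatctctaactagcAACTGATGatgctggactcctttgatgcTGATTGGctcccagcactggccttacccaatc
H2-DMb1: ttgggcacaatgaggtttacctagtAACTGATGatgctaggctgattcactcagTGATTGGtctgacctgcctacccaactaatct
H2-DMb2: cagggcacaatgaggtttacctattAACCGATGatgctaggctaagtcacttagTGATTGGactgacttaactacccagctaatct
The first capital lies 74, 89, 92 and 121 bases before the start in H2-Aa, H2-Eb1, H2-DMb1 and H2-DMb2, and 16, 20, 21 and 21 bases separate the capital blocks. These letters were not found in the windows of H2-DMa and Cd80. H2-Ob and H2-Oa held the Y box without the X box core.

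The chains, Cd74 and Ciita reached their highest levels in M2 in control medium. In WT cells in control medium, 8 of the 10 genes were higher in M2 than in Mφ and 1 was lower, where 19.1% higher and 18.1% lower of all genes tested were called. In WT cells in MPNST-CM, 9 were higher and 0 lower, with 11.9% higher and 13% lower of all genes. In KO cells 7 were higher and 1 lower in control medium (background 15.6% higher and 12.9% lower), and 6 were higher and 0 lower in MPNST-CM (background 6.71% higher and 4.47% lower). The median log2 fold change of the 10 genes was 2.22, 1.53, 1.70 and 0.55 in these comparisons, beside medians over all genes between -0.052 and 0.0082. With the batch 2 libraries included, 8, 6, 6 and 4 of the 10 genes were called, and the 19 libraries gave 9, 9, 8 and 6.

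The class II chains, Cd74 and Ciita were lower in MPNST-CM in all 4 cell states. In WT Mφ, 7 of the 10 genes were lower in MPNST-CM than in control medium and 0 were higher, where 11.3% higher and 9.97% lower of all genes were called. In KO Mφ 7 were lower and 3 higher (background 14.8% higher and 18.1% lower). In WT M2 7 were lower and 2 higher (background 11.2% higher and 13.3% lower), and in KO M2 7 were lower and 2 higher (background 16.7% higher and 20.2% lower). In each of these 4 comparisons the 7 lower genes were H2-Aa, H2-Ab1, H2-Eb1, Cd74, H2-DMa, H2-DMb1 and Ciita. The median log2 fold change of the 10 genes was -1.03, -1.23, -1.50 and -1.67, with medians over all genes between -0.042 and -0.011. Across the 27 libraries 0, 5, 2 and 1 genes were called (edgeR), against 1, 8, 6 and 7 at an unadjusted p under 0.05 and 0, 6, 4 and 3 by DESeq2. With only the 2 KO M2 libraries of batch 2 left out, 25 libraries gave 6, 9, 9 and 9, and the 19 of batch 1 gave 7, 9, 9 and 9.

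Loss of TRAP1 went with different directions by condition. In Mφ in control medium 5 of the 10 genes were higher in KO than in WT and 0 were lower (background 8.63% higher and 7.96% lower). In Mφ in MPNST-CM 5 were higher and 0 lower (background 19.1% higher and 19.2% lower). In M2 in control medium 0 were higher and 3 lower (background 8.55% higher and 7.87% lower), and in M2 in MPNST-CM 2 were higher and 6 lower (background 17.2% higher and 16.8% lower). Over all 27 libraries edgeR called 0, 1, 0 and 0 of the 10 genes in these 4 comparisons, with 3, 2, 4 and 0 at an unadjusted p under 0.05 and 0, 1, 0 and 0 by DESeq2, and the 25 libraries gave 5, 2, 2 and 5. The 19 libraries of batch 1 gave 5, 4, 4 and 9. In Mφ in MPNST-CM the count in batch 1 was 3 without WT Mφ in MPNST-CM replicate 2.

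Whether a response differed between genotypes or cell types was tested as an interaction. The response to MPNST-CM differed between KO and WT Mφ in 6 genes, where the log2 fold change was higher in KO for 2 and lower for 4 (background 8.18% higher and 11.5% lower). In M2 it differed in 6 genes, 1 higher and 5 lower in KO (background 9.36% higher and 10.8% lower). The response to IL-4 in control medium differed between genotypes in 5 genes, 0 higher and 5 lower in KO (background 3.86% higher and 3.22% lower). The response of WT cells to MPNST-CM differed between M2 and Mφ in 3 genes, 1 higher and 2 lower in M2 (background 5.24% higher and 6.91% lower), and in 5 genes without WT Mφ in MPNST-CM replicate 2. On the 27 libraries edgeR called 0, 0, 0 and 0 of the 10 genes in these tests, with 1, 0, 1 and 1 at an unadjusted p under 0.05 and 0, 0, 0 and 1 by DESeq2. The 25 libraries gave 4, 3, 5 and 3, and the 19 of batch 1 6, 7, 6 and 3.

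**Figure D1:**
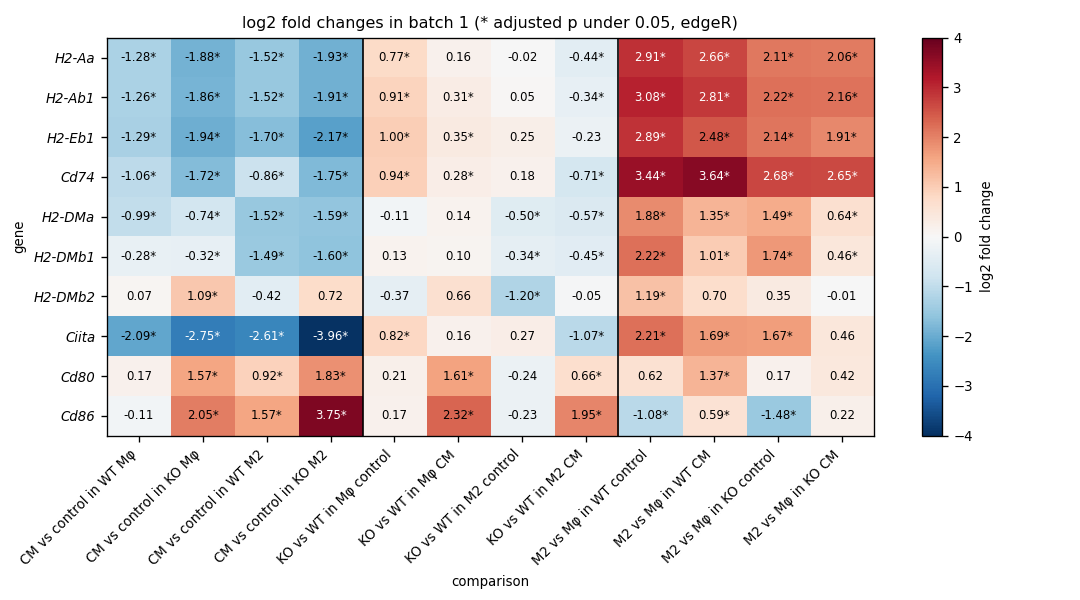
Log2 fold changes of the 10 genes (rows) in the 12 pairwise comparisons (columns) of batch 1, each from the same edgeR fit, with a star where the adjusted p was under 0.05. The columns of MPNST-CM against control medium are negative for H2-Aa, H2-Ab1, H2-Eb1, Cd74, H2-DMa, H2-DMb1 and Ciita in all 4 cell states, and the columns of M2 against Mφ are positive for these 7 genes.

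H2-Aa, H2-Ab1, H2-Eb1 and Cd74 rose with IL-4 and fell in MPNST-CM in both genotypes, and the fall was steeper in TRAP1 KO cells. H2-Aa, the α chain of H2-A, had 155, 160.0 and 158 CPM in the 3 libraries of WT Mφ in control medium and 73.7, 59.4 and 62.0 in MPNST-CM. In KO Mφ it had 273, 258 and 275 CPM in control medium and 67.8, 78.8 and 71.8 in MPNST-CM. The KO Mφ libraries in control medium all lie above the WT ones, whereas the 2 genotypes overlap in MPNST-CM. In M2 it had 1237, 1107 and 1202 CPM in WT and 1189, 1163 and 1132 in KO cells in control medium. In MPNST-CM the M2 libraries had 372, 438 and 426 CPM in WT and 317, 293 and 303 in KO. Here the genotypes overlap in control medium and not in MPNST-CM, where KO is lower.

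On the log2 scale H2-Aa was higher by 2.91 ± 0.09 (SE) in WT M2 than in WT Mφ in control medium (adjusted p = 1.01e-19) and by 2.11 ± 0.08 in KO cells (adjusted p = 7.32e-17). The IL-4 response was smaller in KO, with an interaction of -0.79 ± 0.11 (adjusted p = 2.59e-05). MPNST-CM changed H2-Aa by -1.28 ± 0.08 in WT Mφ (adjusted p = 1.97e-11) and by -1.88 ± 0.08 in KO Mφ (adjusted p = 7.48e-16). In M2 the change was -1.52 ± 0.08 in WT (adjusted p = 1.2e-13) and -1.93 ± 0.08 in KO (adjusted p = 2.5e-16). The fall was steeper in KO, with an interaction of -0.61 ± 0.12 in Mφ (adjusted p = 0.000345) and -0.41 ± 0.11 in M2 (adjusted p = 0.00987). Between genotypes H2-Aa differed by 0.77 ± 0.08 in Mφ in control medium (adjusted p = 8.63e-08) and by -0.44 ± 0.08 in M2 in MPNST-CM (adjusted p = 0.000107). In Mφ in MPNST-CM the difference was 0.16 ± 0.08 (adjusted p = 0.134). The H2-Aa difference for KO in Mφ in MPNST-CM passed the test without WT Mφ in MPNST-CM replicate 1 (adjusted p = 0.021). It passed in the 19 libraries as well (adjusted p = 0.0026). With the batch 2 libraries included, the fall in MPNST-CM was -1.01 ± 0.54 in WT Mφ (adjusted p = 0.306), -1.84 ± 0.58 in KO Mφ (adjusted p = 0.0308) and -1.29 ± 0.49 in KO M2 (adjusted p = 0.121), and the interaction in M2 turned to 0.17 ± 0.74 (adjusted p = 0.952).

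H2-Ab1, the β chain that pairs with H2-Aa, followed the same order of groups except at the top. WT Mφ had 104 ± 8.06 CPM (SD, n = 3) in control medium and 43.4 ± 3.67 in MPNST-CM, and KO Mφ had 195 ± 12.6 and 53.8 ± 3.43. WT M2 had 877 ± 50.8 and 305 ± 12.8, and KO M2 had 907 ± 25.2 and 241 ± 15.9. The 2 M2 groups in control medium overlap, and every other neighbour in the order of levels is separated from the next. The change in MPNST-CM was -1.26 ± 0.08 in WT Mφ and -1.86 ± 0.08 in KO Mφ, and -1.52 ± 0.08 in WT M2 and -1.91 ± 0.08 in KO M2 (adjusted p 2.89e-11, 9.82e-16, 1.02e-13 and 2.5e-16). The interaction of genotype and medium was -0.59 ± 0.12 in Mφ (adjusted p = 0.000467) and -0.39 ± 0.11 in M2 (adjusted p = 0.0139). The H2-Ab1 call for genotype by medium in M2 was lost without KO M2 in MPNST-CM replicate 2 (adjusted p = 0.0524). KO Mφ were higher than WT by 0.91 ± 0.08 in control medium (adjusted p = 5.48e-09) and by 0.31 ± 0.09 in MPNST-CM (adjusted p = 0.00527). The H2-Ab1 call for KO in Mφ in MPNST-CM was lost with the compared groups alone (adjusted p = 0.104). It was also lost in the 19 libraries (adjusted p = 0.0535). KO M2 in MPNST-CM were lower by 0.34 ± 0.08 on the log2 scale (adjusted p = 0.00148). Over the 27 libraries the H2-Ab1 interaction was -0.81 ± 0.76 in Mφ (adjusted p = 0.623) and turned to 0.13 ± 0.72 in M2 (adjusted p = 0.967).

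H2-Eb1, the β chain of H2-E, had 65.2 ± 2.37 CPM (SD, n = 3) in WT Mφ in control medium and 26.6 ± 3.34 in MPNST-CM, with 130.0 ± 13.1 and 33.8 ± 3.56 in KO Mφ. In M2 it had 484 ± 2.39 and 149 ± 5.36 CPM in WT and 575 ± 37.7 and 127 ± 13.9 in KO. Its partner α chain, H2-Ea, had no read in any of the 24 libraries, and is known to be silent in the C57BL/6 haplotype. H2-Eb1 fell in MPNST-CM by 1.29 ± 0.10 in WT Mφ, 1.94 ± 0.10 in KO Mφ, 1.70 ± 0.09 in WT M2 and 2.17 ± 0.10 in KO M2 on the log2 scale (adjusted p at most 4.75e-10). The fall was steeper in KO, with an interaction of -0.65 ± 0.14 in Mφ (adjusted p = 0.00121) and -0.48 ± 0.13 in M2 (adjusted p = 0.0103). KO Mφ had more H2-Eb1 than WT, by 1.00 ± 0.10 in control medium (adjusted p = 1.78e-08) and 0.35 ± 0.10 in MPNST-CM (adjusted p = 0.00975). The H2-Eb1 call for KO in Mφ in MPNST-CM was lost without WT Mφ in MPNST-CM replicate 2 or KO Mφ in MPNST-CM replicate 2 (adjusted p = 0.0634 to 0.0878) and with the compared groups alone (adjusted p = 0.114). In M2 in MPNST-CM the genotypes differed by -0.23 ± 0.09 (adjusted p = 0.0649). The H2-Eb1 difference for KO in M2 in MPNST-CM passed the test without WT M2 in MPNST-CM replicate 1 or KO M2 in MPNST-CM replicate 3 (adjusted p = 0.0152 to 0.0192) and with median-of-ratios factors, no filter on low counts, DESeq2 or the compared groups alone (adjusted p = 0.0115 to 0.0469). It also passed in the 19 libraries (adjusted p = 0.00164). With batch 2 the H2-Eb1 interaction was -0.83 ± 0.76 in Mφ (adjusted p = 0.61) and turned to 0.12 ± 0.71 in M2 (adjusted p = 0.967).

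Cd74, the invariant chain, had 199.9, 217 and 242 CPM in WT Mφ in control medium and 99.6, 108 and 109 in MPNST-CM. KO Mφ had 380.4, 390.3 and 497 CPM in control medium and 119.8, 121 and 143 in MPNST-CM. The genotypes do not overlap in either medium, KO being higher. WT M2 had 2309.7, 2451 and 2389.8 CPM in control medium and 1164, 1341 and 1431 in MPNST-CM. KO M2 had 2503, 2910.4 and 2706 CPM in control medium and 778, 728 and 905 in MPNST-CM. In M2 in MPNST-CM every KO library lies below every WT library. Cd74 rose with IL-4 by 3.44 ± 0.11 in WT (adjusted p = 1.3e-18) and 2.68 ± 0.11 in KO (adjusted p = 1.82e-16) in control medium. In MPNST-CM it fell by 1.06 ± 0.11 in WT Mφ and 1.72 ± 0.11 in KO Mφ, and by 0.86 ± 0.10 in WT M2 and 1.75 ± 0.11 in KO M2 (adjusted p at most 4.12e-07). The interaction of genotype and medium was -0.66 ± 0.15 in Mφ (adjusted p = 0.00188) and -0.89 ± 0.15 in M2 (adjusted p = 5.37e-05). KO was higher by 0.94 ± 0.11 in Mφ in control medium (adjusted p = 2.35e-07) and lower by 0.71 ± 0.10 in M2 in MPNST-CM (adjusted p = 5.79e-06). In Mφ in MPNST-CM KO was higher by 0.28 ± 0.11 (adjusted p = 0.0439). The Cd74 call for KO in Mφ in MPNST-CM was lost without WT Mφ in MPNST-CM replicate 1, 2 or 3 or KO Mφ in MPNST-CM replicate 3 (adjusted p = 0.064 to 0.237) and with median-of-ratios factors, DESeq2 or the compared groups alone (adjusted p = 0.062 to 0.126). The 19 libraries lost it too (adjusted p = 0.125). On the 27 libraries the Cd74 interactions were -0.85 ± 0.71 in Mφ (adjusted p = 0.568) and -0.32 ± 0.68 in M2 (adjusted p = 0.887).

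**Figure D2:**
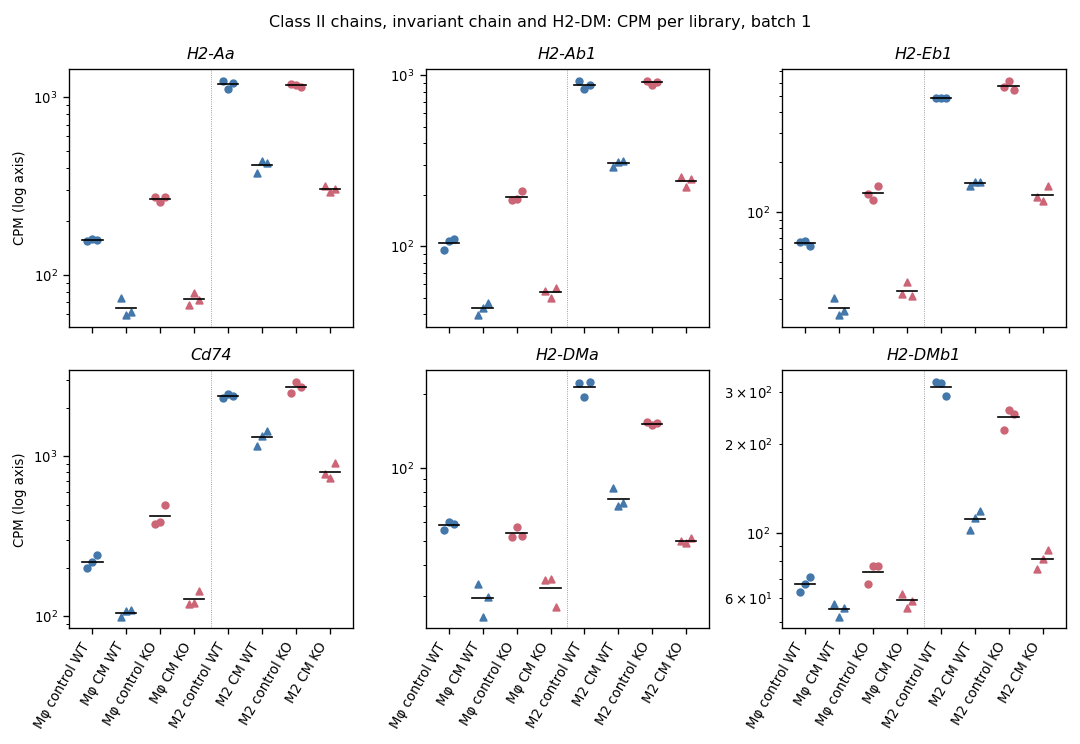
CPM (log axis) of H2-Aa, H2-Ab1, H2-Eb1, Cd74, H2-DMa and H2-DMb1 in each of the 24 batch 1 libraries, with groups on the x axis, WT in blue, KO in red, circles for control medium, triangles for MPNST-CM and a line at the group mean of 3 libraries. In each gene the M2 groups in control medium (on the right) are the highest and MPNST-CM lies below control medium in every pair of groups.

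In batch 1 H2-DMa and H2-DMb1 rose with IL-4, fell in MPNST-CM, and were lower in KO than in WT M2 in both media. H2-DMa had 55.7, 60.1 and 58.8 CPM in WT Mφ in control medium, 33.4, 24.6 and 29.7 in WT Mφ in MPNST-CM, 51.9, 57.4 and 52.8 in KO Mφ in control medium and 34.8, 35.1 and 27.1 in KO Mφ in MPNST-CM. The genotypes overlap in both media. In M2 it had 222, 195 and 224 CPM in WT and 153, 149 and 152 in KO in control medium, and 82.6, 69.5 and 72.0 in WT and 50.4, 49.3 and 51.4 in KO in MPNST-CM. KO M2 lie below WT M2 in both media, by 0.50 ± 0.10 (adjusted p = 0.000757) and 0.57 ± 0.10 (adjusted p = 9.07e-05) on the log2 scale. Over the 27 libraries the difference of KO from WT M2 was -0.79 ± 0.35 in control medium (adjusted p = 0.154). In MPNST-CM it was -0.0017 ± 0.35 (adjusted p = 0.998). H2-DMa changed in MPNST-CM by -0.99 ± 0.11 in WT Mφ, -0.74 ± 0.11 in KO Mφ, -1.52 ± 0.10 in WT M2 and -1.59 ± 0.10 in KO M2 (adjusted p at most 3.01e-06). The interaction of genotype and medium was 0.25 ± 0.15 in Mφ (adjusted p = 0.277) and -0.07 ± 0.14 in M2 (adjusted p = 0.787). In WT cells the fall was steeper in M2 than in Mφ, with an interaction of -0.52 ± 0.15 (adjusted p = 0.0175). The H2-DMa call for IL-4 by medium in WT was lost without WT Mφ in MPNST-CM replicate 1 or WT M2 in control medium replicate 4 (adjusted p = 0.0502 to 0.0641) and with no filter on low counts or the compared groups alone (adjusted p = 0.0533 to 0.0874).

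H2-DMb1, a β chain of H2-DM, had 67.1 ± 3.95 CPM (SD, n = 3) in WT Mφ and 73.6 ± 5.83 in KO Mφ in control medium, and 55.1 ± 2.83 and 59.1 ± 3.23 in MPNST-CM. In M2 it had 312 ± 18.2 in WT and 246 ± 20.1 in KO in control medium, and 111 ± 8.23 and 81.3 ± 5.96 in MPNST-CM. The fall in MPNST-CM was small in Mφ, at -0.28 ± 0.09 in WT (adjusted p = 0.0236) and -0.32 ± 0.09 in KO (adjusted p = 0.00673), and larger in M2, at -1.49 ± 0.09 in WT (adjusted p = 5.77e-13) and -1.60 ± 0.09 in KO (adjusted p = 4.67e-14). The H2-DMb1 call for MPNST-CM in WT Mφ was lost without WT Mφ in control medium replicate 2 or 3 or WT Mφ in MPNST-CM replicate 2 or 3 (adjusted p = 0.0543 to 0.116) and with no filter on low counts or the compared groups alone (adjusted p = 0.062 to 0.088). The difference between M2 and Mφ in WT was -1.21 ± 0.12 (adjusted p = 1.95e-07). KO M2 had less H2-DMb1 than WT M2, by 0.34 ± 0.09 in control medium (adjusted p = 0.00546) and 0.45 ± 0.09 in MPNST-CM (adjusted p = 0.000209). Over the 27 libraries the difference of KO from WT M2 was -0.63 ± 0.28 in control medium (adjusted p = 0.167). In MPNST-CM it was -0.12 ± 0.29 (adjusted p = 0.849). The rise with IL-4 in control medium was smaller in KO, with an interaction of -0.48 ± 0.12 (adjusted p = 0.0142). The H2-DMb1 call for genotype by IL-4 was lost without KO M2 in control medium replicate 1 or WT M2 in control medium replicate 2 or 3 (adjusted p = 0.0649 to 0.0858).

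H2-DMb2, the other β chain of H2-DM, had 0.656 to 3.65 CPM over the 24 libraries, and 5 to 30 reads. Its highest group was WT M2 in control medium, with 3.30, 3.36 and 3.64 CPM, and its lowest KO Mφ in control medium, with 0.874, 1.96 and 0.656. It was higher in WT M2 than in WT Mφ in control medium by 1.19 ± 0.38 (adjusted p = 0.014), higher in MPNST-CM in KO Mφ by 1.09 ± 0.40 (adjusted p = 0.0394) and lower in KO than in WT M2 in control medium by 1.20 ± 0.38 (adjusted p = 0.0321). The H2-DMb2 call for MPNST-CM in KO Mφ was lost without KO Mφ in control medium replicate 1 or 3 or KO Mφ in MPNST-CM replicate 1, 2 or 3 (adjusted p = 0.06 to 0.176) and with no filter on low counts, DESeq2 or the compared groups alone (adjusted p = 0.0515 to 0.0613). It was lost in the 19 libraries as well (adjusted p = 0.131). The H2-DMb2 call for KO in M2 in control medium was lost without KO M2 in control medium replicate 1 or 2 or WT M2 in control medium replicate 2, 3 or 4 (adjusted p = 0.0629 to 0.143) and with a block on replicate number (adjusted p = 0.0977). The H2-DMb2 call for M2 in WT in control medium was lost with a block on replicate number (adjusted p = 0.0566). In KO M2 the change in MPNST-CM was 0.72 ± 0.39 (adjusted p = 0.161). The H2-DMb2 difference for MPNST-CM in KO M2 passed the test without KO M2 in control medium replicate 3 (adjusted p = 0.0146). The 2 H2-DMb genes are near-identical copies in part: 254 stretches of 75 bases, the read length, occur in the GENCODE transcripts of both, which is 15.8% of those of H2-DMb1 and 14.6% of those of H2-DMb2. In the last 400 bases, where 3′ reads fall, 107 of 781 stretches of H2-DMb1 and 0 of 332 of H2-DMb2 were shared. Reads from shared stretches, for H2-DMb1 in particular, do not tell the 2 genes apart. They could be lost to the mapping quality minimum of 20, which was not tested.

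Ciita had the widest fall in MPNST-CM among the 10 genes in each cell state. It had 14.5, 11.8 and 9.55 CPM in WT Mφ in control medium and 3.81, 2.65 and 1.94 in MPNST-CM, and in KO Mφ 25.0, 19.7 and 18.4 in control medium and 3.74, 2.55 and 3.05 in MPNST-CM. The media do not overlap in either genotype, and the genotypes overlap in MPNST-CM only. In M2 it had 53.1, 56.4 and 56.5 CPM in WT and 69.8, 59.5 and 71.3 in KO cells in control medium, and 10.9, 7.43 and 8.79 in WT and 4.62, 3.50 and 4.80 in KO in MPNST-CM. KO M2 lie above WT M2 in control medium and below them in MPNST-CM. At the lowest, in WT Mφ in MPNST-CM, the gene rested on 18 to 33 reads per library.

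Ciita changed in MPNST-CM by -2.09 ± 0.22 in WT Mφ (adjusted p = 5.47e-08), -2.75 ± 0.21 in KO Mφ (adjusted p = 2.63e-11), -2.61 ± 0.17 in WT M2 (adjusted p = 6.59e-12) and -3.96 ± 0.19 in KO M2 (adjusted p = 2.7e-15). In M2 the fall was steeper in KO, with an interaction of -1.35 ± 0.26 (adjusted p = 0.000343), and in Mφ the interaction was -0.66 ± 0.31 (adjusted p = 0.153). KO had more Ciita than WT in Mφ in control medium by 0.82 ± 0.17 (adjusted p = 0.00107) and less in M2 in MPNST-CM, where the difference was -1.07 ± 0.21 (adjusted p = 0.000226), while in M2 in control medium the difference was 0.27 ± 0.15 (adjusted p = 0.237). IL-4 raised it by 2.21 ± 0.17 in WT (adjusted p = 3.15e-11) and 1.67 ± 0.16 in KO (adjusted p = 4.11e-09) in control medium and by 1.69 ± 0.22 in WT in MPNST-CM (adjusted p = 1.44e-06). In KO in MPNST-CM the difference between M2 and Mφ was 0.46 ± 0.25 (adjusted p = 0.291). With the batch 2 libraries the change in MPNST-CM was -1.80 ± 0.97 in WT Mφ (adjusted p = 0.302), -2.70 ± 1.00 in KO Mφ (adjusted p = 0.0619), -2.56 ± 0.91 in WT M2 (adjusted p = 0.091) and -1.88 ± 0.76 in KO M2 (adjusted p = 0.141), and the difference between KO and WT M2 in MPNST-CM turned to 0.51 ± 0.85 (adjusted p = 0.763).

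**Figure D3:**
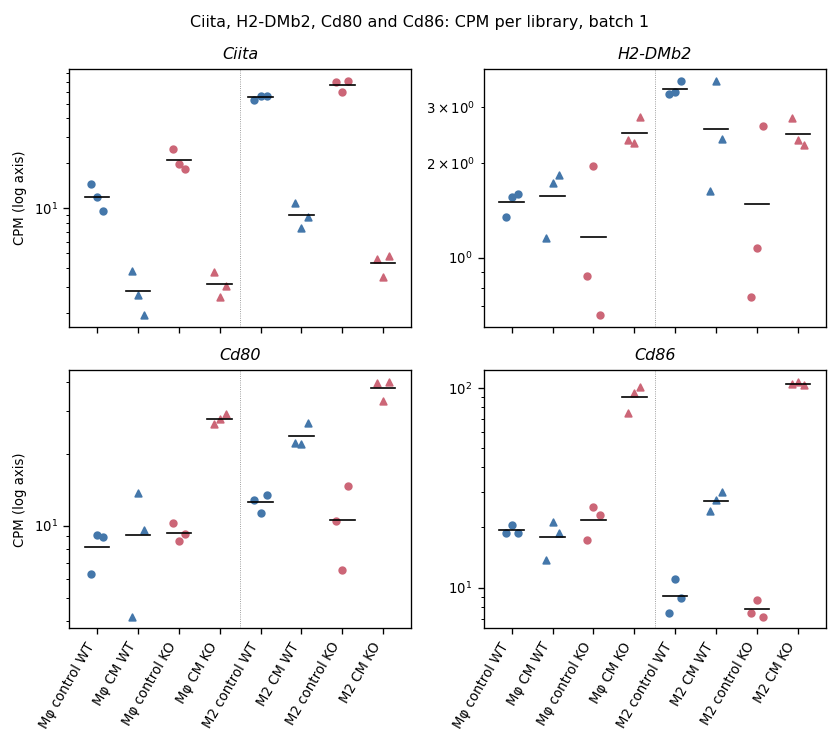
CPM (log axis) of Ciita, H2-DMb2, Cd80 and Cd86 in each of the 24 batch 1 libraries, with groups on the x axis, WT in blue, KO in red, circles for control medium, triangles for MPNST-CM and a line at the group mean of 3 libraries. Ciita is lower in MPNST-CM in every pair of groups, whereas Cd86 is high in the 2 KO groups in MPNST-CM, at 74.8 to 107 CPM.

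The costimulatory ligands Cd80 and Cd86 rose in MPNST-CM in KO Mφ, WT M2 and KO M2, where the class II chains, Cd74 and Ciita fell. In WT Mφ neither ligand passed the test. Cd86, the B7 ligand of resting antigen-presenting cells, had 18.9, 20.7 and 18.8 CPM in WT Mφ in control medium and 13.8, 21.4 and 18.8 in MPNST-CM, which overlap. KO Mφ had 17.2, 25.2 and 23.1 CPM in control medium and 74.8, 94.5 and 101 in MPNST-CM. WT M2 had 7.50, 10.99 and 8.83 CPM in control medium and 24.1, 27.4 and 30.02 in MPNST-CM. KO M2 had 7.49, 8.69 and 7.16 CPM in control medium and 105, 107 and 103 in MPNST-CM. The KO groups in MPNST-CM are the 2 highest, and the genotypes overlap in control medium in both cell types.

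Cd86 changed in MPNST-CM by -0.11 ± 0.16 in WT Mφ (adjusted p = 0.694), 2.05 ± 0.15 in KO Mφ (adjusted p = 1.56e-11), 1.57 ± 0.17 in WT M2 (adjusted p = 5.78e-08) and 3.75 ± 0.17 in KO M2 (adjusted p = 7.27e-16). The interaction of genotype and medium was 2.15 ± 0.22 in Mφ (adjusted p = 2.18e-08) and 2.18 ± 0.24 in M2 (adjusted p = 1.37e-07). In MPNST-CM KO was higher than WT by 2.32 ± 0.15 in Mφ (adjusted p = 1.85e-12) and 1.95 ± 0.15 in M2 (adjusted p = 4.2e-11). IL-4 lowered Cd86 in control medium by 1.08 ± 0.17 in WT (adjusted p = 1.22e-05) and 1.48 ± 0.18 in KO (adjusted p = 1.77e-07), and in WT cells its response to MPNST-CM differed between M2 and Mφ by 1.68 ± 0.23 (adjusted p = 1.32e-05). Over all 27 libraries the change in MPNST-CM was 2.09 ± 0.91 in KO Mφ (adjusted p = 0.118) and 0.74 ± 0.75 in KO M2 (adjusted p = 0.608), and the interaction in M2 turned to -0.89 ± 1.21 (adjusted p = 0.805).

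Cd80, the B7 ligand induced on activation, had 6.25, 9.11 and 8.99 CPM in WT Mφ in control medium and 4.16, 13.7 and 9.58 in MPNST-CM. In KO Mφ it had 10.2, 8.62 and 9.19 CPM in control medium and 26.7, 27.8 and 29.2 in MPNST-CM. WT Mφ in MPNST-CM spread more than any other group of Cd80 relative to its mean, and KO Mφ in MPNST-CM lie above all of them. WT M2 had 12.7, 11.3 and 13.5 CPM in control medium and 22.2, 21.9 and 26.9 in MPNST-CM, and KO M2 had 10.5, 6.55 and 14.6 and then 39.4, 33.3 and 39.8 CPM. In both M2 genotypes every library in MPNST-CM lies above every library in control medium. Cd80 rose in MPNST-CM by 1.57 ± 0.27 in KO Mφ (adjusted p = 6.36e-05), 0.92 ± 0.26 in WT M2 (adjusted p = 0.0122) and 1.83 ± 0.26 in KO M2 (adjusted p = 7.39e-06), while in WT Mφ the change was 0.17 ± 0.29 (adjusted p = 0.741). The Cd80 call for MPNST-CM in WT M2 was lost without WT M2 in control medium replicate 3 or WT M2 in MPNST-CM replicate 3 (adjusted p = 0.0503 to 0.052). The interaction of genotype and medium was 1.40 ± 0.39 in Mφ (adjusted p = 0.0134) and 0.91 ± 0.37 in M2 (adjusted p = 0.0949). The Cd80 difference for genotype by medium in M2 passed the test without KO M2 in control medium replicate 3 (adjusted p = 0.0367) and with no filter on low counts or the compared groups alone (adjusted p = 0.0199 to 0.0338). It passed in the 19 libraries too (adjusted p = 0.0239). In MPNST-CM KO was higher than WT by 1.61 ± 0.26 in Mφ (adjusted p = 4.38e-05) and by 0.66 ± 0.24 in M2 (adjusted p = 0.0401). The Cd80 call for KO in M2 in MPNST-CM was lost without WT M2 in MPNST-CM replicate 1, 2 or 3 or KO M2 in MPNST-CM replicate 1 or 3 (adjusted p = 0.0685 to 0.157) and with median-of-ratios factors or DESeq2 (adjusted p = 0.0591 to 0.0627). Over all 27 libraries the Cd80 change in MPNST-CM was 1.62 ± 0.48 in KO Mφ (adjusted p = 0.0198), 0.98 ± 0.47 in WT M2 (adjusted p = 0.225) and 0.84 ± 0.40 in KO M2 (adjusted p = 0.212). In MPNST-CM KO differed from WT by 1.58 ± 0.48 in Mφ (adjusted p = 0.02) and 0.35 ± 0.43 in M2 (adjusted p = 0.657). The interaction in M2 turned to -0.14 ± 0.61 (adjusted p = 0.954).

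**Figure D4:**
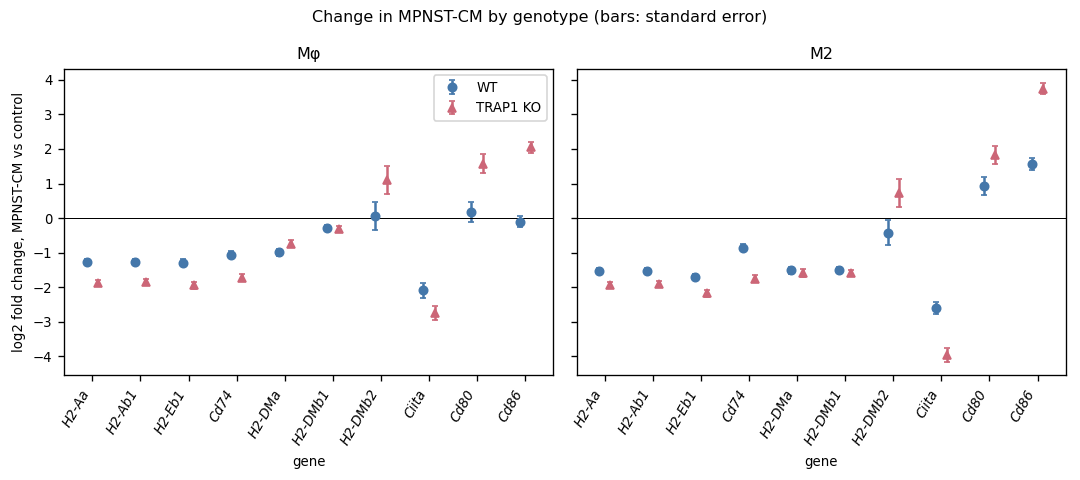
Log2 fold change of MPNST-CM against control medium for the 10 genes (x axis) in Mφ (left) and M2 (right), circles for WT and triangles for TRAP1 KO, with bars of 1 standard error from the edgeR fit of batch 1. The 4 genes H2-Aa, H2-Ab1, H2-Eb1 and Cd74 lie lower in KO than in WT in both panels, and Cd86 lies higher in KO.

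The genes were not alike in their pattern over the 8 group means. The profile of H2-Aa, H2-Ab1, H2-Eb1 and Cd74 (mean of their standardized log2 CPM) correlated with that of H2-DMa at r = 0.94, H2-DMb1 at 0.93, Ciita at 0.86, H2-DMb2 at 0.19, Cd80 at 0.0039 and Cd86 at -0.52, as a description over 8 points of the same libraries. Outside the set, the 5 genes most like this profile were Atp2c1 (a Golgi calcium pump, r = 0.988), Tmem19 (0.986), Cst3 (cystatin C, an inhibitor of cysteine proteases, 0.983) and COX2 and ND3 (symbols of mitochondrially encoded respiratory chain subunits, 0.982 and 0.980). Of the 9096 genes with at least 10 CPM in a group, 2.67% had an r of at least 0.9. The range of Cst3 was narrower than that of the chains, as it had 3153 ± 151 CPM (SD, n = 3) in WT M2 in control medium, the highest group, and 1312 ± 65.3 in KO Mφ in MPNST-CM, the lowest. Only Cst3 of the 5 was also among the 5 most alike over the 24 single libraries.

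Other genes of the pathway were counted in lists, and each gene named from them passed the test at an adjusted p under 0.05 (edgeR). Beside the counts in MPNST-CM stand the shares of all genes called, 11.3% higher and 9.97% lower in WT Mφ, 14.8% higher and 18.1% lower in KO Mφ, 11.2% higher and 13.3% lower in WT M2 and 16.7% higher and 20.2% lower in KO M2. A list of 9 genes held the complex that keeps CIITA at the promoters (the RFX subunits, NF-Y subunits and Creb1) and the coactivators Crebbp and Ep300. Of these 9, 2 fell in MPNST-CM in WT Mφ, 1 rose in KO Mφ, 1 rose in KO M2 and 0 passed in WT M2. Rfx5, the DNA-binding RFX subunit, fell in WT Mφ by 0.53 ± 0.15 and Rfxap rose in KO Mφ by 0.72 ± 0.15. The list's median log2 fold change in MPNST-CM was -0.055, -0.067, -0.064 and -0.053 in WT Mφ, KO Mφ, WT M2 and KO M2. With IL-4 in WT cells in control medium 0 rose and 3 fell, where 19.1% higher and 18.1% lower of all genes were called.

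Among 15 genes of the cytokine pathways upstream of Ciita, 1 rose and 7 fell in MPNST-CM in WT Mφ, 2 rose and 6 fell in KO Mφ, 3 rose and 7 fell in WT M2, and 5 rose and 4 fell in KO M2. Of all genes, 16.7% higher and 20.2% lower were called in KO M2 and 11.3% higher and 9.97% lower in WT Mφ. The medians were -0.28, -0.052, -0.13 and 0.034. Irf4, an IL-4-induced interferon regulatory factor, fell in WT M2 by 2.23 ± 0.18, from 50.3 to 10.7 CPM, and in KO M2 by 2.94 ± 0.24, from 14.3 to 1.84 CPM. Irf1, an activator of Ciita, fell in KO Mφ by 1.10 ± 0.08. Socs1, an inhibitor of JAK signalling, had 27.4 CPM in WT M2 and 1.83 in KO M2 in control medium, a difference of -3.90 ± 0.31. In Mφ in control medium 5 genes of this list were higher in KO and 0 lower (background 8.63% higher and 7.96% lower), among them Irf8 (0.72 ± 0.10) and Irf1 (0.67 ± 0.08).

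Among 8 genes of endosomal processing and class II turnover, 1 rose and 2 fell in MPNST-CM in WT Mφ, 1 rose and 5 fell in KO Mφ, 1 rose and 5 fell in WT M2, and 2 rose and 5 fell in KO M2. Beside these stand 11.3% higher and 9.97% lower of all genes in WT Mφ and 16.7% higher and 20.2% lower in KO M2. The list's medians were -0.18, -0.30, -0.36 and -0.55. Ctsl, the endosomal protease cathepsin L, rose in all 4 states, by 1.31 ± 0.14, 2.60 ± 0.14, 1.49 ± 0.14 and 1.64 ± 0.14. Marchf1, a ubiquitin ligase that sends class II and CD86 for degradation, fell in all 4, by 0.92 ± 0.09, 0.82 ± 0.10, 1.10 ± 0.09 and 1.31 ± 0.10. Ctss, cathepsin S, which trims the invariant chain, rose with IL-4 in WT in control medium by 1.25 ± 0.06 and fell in MPNST-CM in WT M2 by 0.78 ± 0.06. With IL-4 in WT cells in control medium 6 of the 8 rose and 0 fell (background 19.1% higher and 18.1% lower).

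Of 12 other costimulatory and coinhibitory ligands, 10 were tested, and in MPNST-CM 0 rose and 5 fell in WT Mφ, 1 rose and 4 fell in KO Mφ, 2 rose and 4 fell in WT M2, and 2 rose and 5 fell in KO M2, with medians of -0.45, -0.48, -0.15 and -0.61. Of all genes, 11.3% higher and 9.97% lower were called in WT Mφ and 14.8% higher and 18.1% lower in KO Mφ. Cd83, which stabilizes class II at the surface, fell by 0.85 ± 0.11 in WT Mφ and 1.41 ± 0.11 in KO Mφ. Pdcd1lg2 (PD-L2) rose with IL-4 in WT cells in control medium by 5.71 ± 0.55, from 0.239 to 13.5 CPM, and fell in WT M2 in MPNST-CM by 1.62 ± 0.36. Icam1 fell in MPNST-CM in WT M2 by 1.24 ± 0.10 and in KO M2 by 1.26 ± 0.10. Of the 4 other class II region genes, H2-Ea had no read, and 1 passed the filter. H2-Ob, an inhibitor chain of H2-DM, had at most 2.78 CPM as a group mean.

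Markers of the labelled cell type were present in all groups. The summed level of 8 macrophage markers was 7879.7 to 12301 CPM over the 24 libraries. Single markers changed in MPNST-CM, where 0 rose and 4 fell in WT Mφ (background 11.3% higher and 9.97% lower). In KO Mφ 2 rose and 5 fell (background 14.8% higher and 18.1% lower). In WT M2 the numbers were 1 and 1 (background 11.2% higher and 13.3% lower). In KO M2 they were 1 and 3 (background 16.7% higher and 20.2% lower). Aif1 fell by 1.10 ± 0.09 in WT Mφ, and Fcgr1 rose by 2.78 ± 0.09 in KO M2. The IL-4 response markers Retnla and Chil3 had 1669.9 and 286 CPM in WT M2 against 0.483 and 1.08 in WT Mφ in control medium. Mrc1, on the same list, had 752 and 732 CPM in these groups. Of the 4 markers, 3 were higher and 0 lower in this comparison (background 19.1% higher and 18.1% lower). In KO cells in control medium 3 were higher and 1 lower in M2 (background 15.6% higher and 12.9% lower). There Mrc1 was at 505 to 585 CPM in M2 and 664 to 725 in Mφ, normalized over the 27 libraries. Arg1, another IL-4 response marker, had 91.9 CPM in WT M2 and 4.88 in KO M2 in control medium, and its part in the genotype differences of class II was not tested. The 6 B cell markers summed to 0.28 to 3.98 CPM, the 6 T cell markers to 0.25 to 6.78, the 6 neutrophil markers to 0.392 to 4.91 and the 6 fibroblast and Schwann-lineage markers to 0.609 to 4.20. Of the 8 dendritic cell markers 6 were tested, and 3 rose and 0 fell with IL-4 in WT cells in control medium (background 19.1% higher and 18.1% lower). In MPNST-CM 1 rose and 3 fell in WT M2 and 2 rose and 2 fell in KO M2, with medians of -0.74 and 0.38. Of all genes, 11.2% higher and 13.3% lower were called in WT M2 and 16.7% higher and 20.2% lower in KO M2. Their sum was 77.3 to 94.3 CPM in WT Mφ in control medium, 1522 to 1545 in WT M2 in control medium and 372 to 405 in WT M2 in MPNST-CM, with 52.9 to 55.8, 777 to 842 and 141 to 143 in the KO groups. In Mφ in control medium the sum was lower in KO than in WT. Most of it was Itgax (CD11c, also expressed by macrophages), at 71.3, 1489 and 370.2 CPM in those WT groups. Batf3, another of these markers, had 29.9 CPM in WT M2 in control medium and 3.64 in MPNST-CM, a change of -3.03 ± 0.24 (adjusted p = 2.21e-10, edgeR). Flt3 and Cd209a had group means of at most 0.581 and 0.999 CPM, with Cd209a at 0 in KO M2. The part of other cells in the class II levels was not tested.

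In the batch 2 libraries, normalized together with the others, the class II genes stood at other levels than in batch 1. The batch 2 library labelled KO M2 in control medium had 55.4 CPM of H2-Aa, where batch 1 had 1113 to 1168. Its Ciita was at 0.669 CPM against 58.3 to 70.1, and its Cd86 at 167 against 7.04 to 8.51. Class II and Ciita are below, and Cd86 above, all batch 1 libraries of that label. The batch 2 library labelled KO M2 in MPNST-CM had 507 CPM of H2-Aa, where batch 1 had 292 to 316. Its Ciita was at 39.7 CPM against 3.48 to 4.79, and its Cd86 at 8.50 against 102 to 106. Here class II and Ciita are above and Cd86 below, so that between these 2 libraries the medium goes with the opposite direction to batch 1. The batch 2 library labelled WT Mφ in control medium had 61.0 CPM of H2-Aa, where batch 1 had 156 to 160.5. Its Ciita was at 4.36 CPM against 9.63 to 14.5, and its Cd86 at 12.4 against 18.9 to 20.7. All 3 genes are below batch 1 there. Trap1 was at 20.7 CPM in this WT library, and at 0.191 and 0 in the libraries labelled KO M2 in control medium and KO M2 in MPNST-CM. The part of the batch in these values was not tested.

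**Figure D5:**
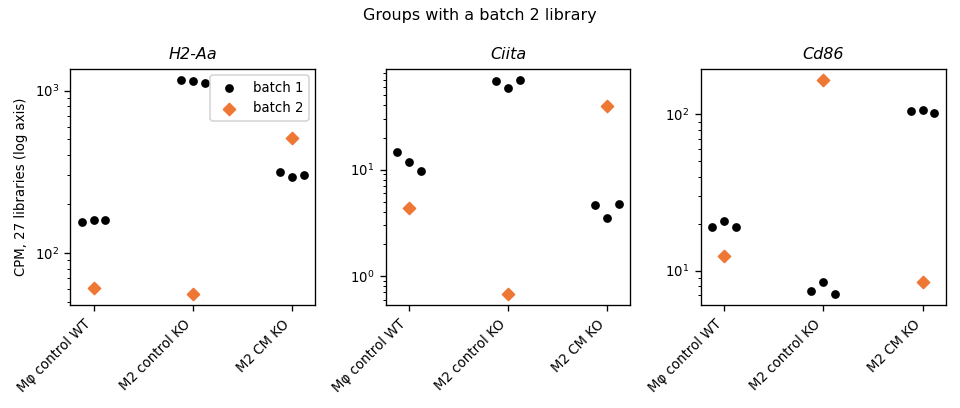
CPM (log axis, normalized over the 27 libraries) of H2-Aa, Ciita and Cd86 in the 3 groups with a batch 2 library, with black circles for the 3 batch 1 libraries and an orange diamond for batch 2. In both KO M2 groups the diamond lies outside the circles for all 3 genes, and in WT Mφ it lies below them.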

How the data were processed

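The authors made 3′ RNA-seq libraries (QuantSeq 3′ FWD) from macrophages, trimmed the reads with Trimmomatic, checked them with FastQC, aligned them with HISAT2, kept those with a mapping quality of at least 20 with SAMtools and counted them with featureCounts, and took normalized values from DESeq2 (DESeq in the submitters' notes). The deposited values are raw counts per gene with no normalization. The labels name the build mm39 and the study's methods mm10, so no coordinate of the count table was used. Of the 32 columns of the table, 5 were not used because their names match no sample label used here.

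The 24 libraries of batch 1 (7037684 to 9089792 reads on genes) were fitted together with edgeR 4.0.16 in R 4.3.3: filterByExpr, TMM factors, 8 group means, no covariate, robust glmQLFit and glmQLFTest. A call is a Benjamini-Hochberg adjusted p under 0.05 over the 13614 genes tested, and errors of log2 fold changes are standard errors. CPM use TMM library sizes, and log2 CPM a prior count of 2. The 3 batch 2 libraries held 9997776 to 11152362 reads. Alternatives were median-of-ratios factors, no filter, DESeq2 1.42.0, the compared groups alone, a replicate block, all 27 libraries with and without batch as a covariate, each library left out, and, chosen after seeing the data, 25 libraries, DESeq2 on 27 and 19 libraries of batch 1.

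The 10 genes and all lists were chosen with earlier results of these data known. From each list, up to 3 genes per comparison are named, ranked by absolute log2 fold change after requiring a pass and 10 CPM in the higher group. Genes named only for a level (Flt3, Cd209a, Itgax, H2-Oa, H2-Ob) stand for their list. Promoter sequences are RefSeq's (GRCm38.p6). In 24 replicate pairs counts differed beyond sampling noise (chi-square per degree of freedom 2.11 to 37.4). Some items are not reported here.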

Additional observations from a re-analysis of the deposited data

Results flagged for a closer look

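In the 3 groups with a batch 2 library beside 3 of batch 1, 30 gene and group combinations were examined and 14 held a library far from the other 3, where chance gives about 1 in 20, or 1.5. A library counted as far where its gap to the nearest other took up most of the range of the group. Each of the 14 was the batch 2 library. The batch 2 library labelled WT Mφ in control medium had 61.0 CPM of H2-Aa against 156 to 160.5 and 30.98 CPM of H2-Eb1 against 62.9 to 67.0 in batch 1. The batch 2 library labelled KO M2 in MPNST-CM had 507 CPM of H2-Aa against 292 to 316, 157 CPM of H2-DMa against 49.1 to 51.3, 182 CPM of H2-DMb1 against 75.2 to 87.0, 39.7 CPM of Ciita against 3.48 to 4.79 and 8.50 CPM of Cd86 against 102 to 106 in batch 1. The batch 2 library labelled KO M2 in control medium had 55.4 CPM of H2-Aa against 1113 to 1168, 46.3 CPM of H2-Ab1 against 863 to 914, 30.9 CPM of H2-Eb1 against 535 to 604, 184 CPM of Cd74 against 2459 to 2852, 46.6 CPM of H2-DMa against 146 to 151, 0.669 CPM of Ciita against 58.3 to 70.1 and 167 CPM of Cd86 against 7.04 to 8.51 in batch 1.

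The 20 differences between responses that passed the interaction test in batch 1 are the following. The response to MPNST-CM in Mφ differed between KO and WT (log2 scale, KO minus WT) in H2-Aa by -0.61, H2-Ab1 by -0.59, H2-Eb1 by -0.65, Cd74 by -0.66, Cd80 by 1.40 and Cd86 by 2.15. In M2 the same difference passed the test in H2-Aa by -0.41, H2-Ab1 by -0.39, H2-Eb1 by -0.48, Cd74 by -0.89, Ciita by -1.35 and Cd86 by 2.18. The response to IL-4 in control medium differed between KO and WT in H2-Aa by -0.79, H2-Ab1 by -0.86, H2-Eb1 by -0.75, Cd74 by -0.76 and H2-DMb1 by -0.48. The response of WT cells to MPNST-CM differed between M2 and Mφ (M2 minus Mφ) in H2-DMa by -0.52, H2-DMb1 by -1.21 and Cd86 by 1.68. Over all 27 libraries 0 of the 20 passed with edgeR (1, 0, 1 and 1 of the 10 genes had an unadjusted p under 0.05 in the 4 tests), and DESeq2 on the same libraries called 1 of the 10 genes, in the last of these tests.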

How the results depend on the processing

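In batch 1, of 108 called values of the 10 genes (a gene in a comparison or interaction), 106 kept direction and call with median-of-ratios factors, 106 with the replicate number as a block, 105 with no filter on low counts, 105 with DESeq2 and 102 with the compared groups fitted alone, and none of these 5 settings reversed one. Leaving out 1 library at a time kept 735 such values, ended the call of 33 and reversed none. The number of the 10 genes called for KO in Mφ in MPNST-CM ran from 3 to 5 on leaving out libraries, and for IL-4 by medium in WT from 2 to 5, with the 3 of the former and the 5 of the latter both without WT Mφ in MPNST-CM replicate 2. Over all genes, with the compared groups alone, 1898 genes were called for MPNST-CM in WT Mφ, 1941 for M2 in WT in MPNST-CM, and 2 of the 10 genes for KO in Mφ in MPNST-CM. That alternative estimates the spread from fewer libraries. The genes most like the class II profile shared 1 of 5 with the ranking over 24 libraries.

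Adding the 3 batch 2 libraries moved most counts by over 1.5 times. Over all 27 libraries, 957, 2647, 1014 and 823 genes were called for MPNST-CM in WT Mφ, KO Mφ, WT M2 and KO M2, among them 0, 5, 2 and 1 of the 10 class II presentation genes. For KO against WT in Mφ in control medium and in MPNST-CM and in M2 in control medium and in MPNST-CM, 854, 3096, 1137 and 1681 genes were called, with 0, 1, 0 and 0 of the 10. 1206, 2216 and 475 genes were called for M2 in WT in MPNST-CM, in KO in control medium and in KO in MPNST-CM. The interactions of genotype and medium in Mφ and in M2, of genotype and IL-4, and of IL-4 and medium called 653, 180, 170 and 192 genes, with 0, 0, 0 and 0 of the 10.

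With batch as a covariate over all of these libraries, 1267, 2826, 1210 and 988 genes were called for MPNST-CM in WT Mφ, KO Mφ, WT M2 and KO M2, among them 0, 5, 2 and 0 of the 10 class II presentation genes. For KO against WT in Mφ in control medium and in MPNST-CM and in M2 in control medium and in MPNST-CM, 843, 3296, 1146 and 1839 genes were called, with 0, 1, 0 and 0 of the 10. 1375, 2045 and 535 genes were called for M2 in WT in MPNST-CM, in KO in control medium and in KO in MPNST-CM. The interactions of genotype and medium in Mφ and in M2, of genotype and IL-4, and of IL-4 and medium called 777, 269, 122 and 328 genes, with 0, 0, 0 and 0 of the 10. DESeq2 on the 27 libraries called 0, 6, 4 and 3 of the 10 genes for MPNST-CM, 0, 1, 0 and 0 for KO against WT and 0, 0, 0 and 1 for the interactions, in the same orders, and 25 libraries without both batch 2 KO M2 libraries gave 2 for KO in Mφ in MPNST-CM, 5 for KO in M2 in MPNST-CM and 3 for genotype by medium in M2 (both chosen after seeing the data). The cause of these moves was not tested.

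The log2 fold changes that changed sign over the 27 libraries, 7 of them called in batch 1, were as follows. For MPNST-CM in WT Mφ Cd86 0.062. For KO in M2 in control medium H2-Ab1 -0.37, H2-Eb1 -0.17, Cd74 -0.22, Ciita -0.17, Cd80 0.49 and Cd86 2.40. For KO in M2 in MPNST-CM Ciita 0.51. For M2 in KO in control medium Cd86 1.17. For M2 in KO in MPNST-CM H2-DMb2 0.036 and Cd86 -0.18. For genotype by medium in M2 H2-Aa 0.17, H2-Ab1 0.13, H2-Eb1 0.12, H2-DMa 0.79, H2-DMb1 0.51, Ciita 0.68, Cd80 -0.14 and Cd86 -0.89. For genotype by IL-4 in control medium Cd80 0.49 and Cd86 2.13.

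With batch as a covariate 9 called and 14 uncalled values changed sign. For MPNST-CM in WT Mφ Cd86 0.27. For KO in Mφ in control medium H2-DMa 0.0036. For KO in M2 in control medium H2-Ab1 -0.34, H2-Eb1 -0.14, Cd74 -0.20, Ciita -0.17, Cd80 0.21 and Cd86 1.23. For KO in M2 in MPNST-CM H2-Aa 0.15, H2-Ab1 0.19, H2-Eb1 0.31 and Ciita 0.31. For M2 in KO in control medium Cd86 0.0062. For M2 in KO in MPNST-CM Cd86 -0.21. For genotype by medium in M2 H2-Aa 0.57, H2-Ab1 0.53, H2-Eb1 0.45, Cd74 0.0081, H2-DMa 0.76, H2-DMb1 0.56 and Ciita 0.48. For genotype by IL-4 in control medium Cd80 0.027 and Cd86 0.75.

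Leaving out a library turned 16 values that had not passed the test, which belong to 10 differences. The ranges on the log2 scale over the libraries left out were as follows. For MPNST-CM in WT Mφ Cd80 from -0.23 to 0.52, Cd86 from -0.25 to 0.0502 and H2-DMb2 from -0.0578 to 0.24. For M2 in KO in control medium Cd80 from -0.14 to 0.43 and H2-DMb2 from -0.33 to 0.94. For KO in Mφ in MPNST-CM Ciita from -0.0555 to 0.44. For KO in M2 in control medium H2-Ab1 from -0.0143 to 0.0779. For genotype by medium in Mφ H2-DMb1 from -0.10 to 0.0065. For KO in M2 in MPNST-CM H2-DMb2 from -0.36 to 0.29. For M2 in KO in MPNST-CM H2-DMb2 from -0.10 to 0.079.

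Libraries with the same replicate number deviated from their group means together in part: the mean correlation was 0.107 over 77 same-number pairs, 34 of them over 0.1, and -0.0451 over 175 other pairs, 30 of them over 0.1. Among the 5 libraries numbered 1 that stand apart the mean was 0.468 over 10 pairs. As not every same-number pair was over 0.1, and no source says that a number marks a shared day or animal, the numbers were not taken as a pairing, and 11 of 24 libraries correlated best with their own number. With the replicate block no count of calls moved by over 1.5 times. The block ended the calls of H2-DMb2 for KO in M2 in control medium (adjusted p = 0.0977) and for M2 in WT in control medium (adjusted p = 0.0566), and Cd74 for KO in M2 in control medium (adjusted p = 0.0454) and Ciita for genotype by IL-4 (adjusted p = 0.0355) passed the test under it. It changed no other call of the 10 genes. In the 19 libraries left without those 5 (chosen after seeing the data), no number of the 10 genes called moved by over 1.5 times. Calls were lost for H2-DMb2 for MPNST-CM in KO Mφ and for H2-Ab1 and Cd74 for KO in Mφ in MPNST-CM, and 5 others passed: H2-Aa for KO in Mφ in MPNST-CM, H2-Eb1 for KO in M2 in both media, Cd80 for genotype by medium in M2 and H2-DMa for genotype by IL-4. Only uncalled values changed sign in them, to 0.038 for Cd86 for MPNST-CM in WT Mφ and -0.019 for Cd80 for KO in Mφ in control medium.

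Depth limits H2-DMb2, at 5 to 30 reads per library, and Ciita in Mφ in MPNST-CM, from 18 reads. With 3 libraries per group an exact permutation test cannot go below 0.1.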
